A study of Mus musculus with 18 samples.

Results

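The genes described here are the chains and kinases that start signalling from the T cell receptor and from the activating receptors of natural killer (NK) cells. They are the CD3 chains Cd3d, Cd3e and Cd3g, the zeta chain Cd247, the NK adaptor chains Fcer1g, Tyrobp and Hcst, the kinases Zap70 and Syk, and the scaffold Lat. They were chosen by gene symbol, as the probe sets annotated to that symbol alone, which gave 10 genes of the 19938 named genes on the array, each with 1 probe set. Where a signal at a receptor reaches the cell interior, Src-family kinases phosphorylate tyrosine motifs (ITAMs) in these chains, Zap70 or Syk docks there, and Lat gathers the next enzymes. The CD3 chains form this module for the T cell receptor. The zeta chain serves the T cell receptor and has also been linked to the NK receptor NKp46. Fcer1g serves NKp46, CD16 and other receptors. Tyrobp (DAP12) serves activating Ly49 receptors, and Hcst (DAP10) serves NKG2D through a motif that is not an ITAM. CD3 chain RNA is known from immature NK cells that carry no T cell receptor at the surface.

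The study compared splenic NK cells of Runx3 -/- mice (KO) with those of Runx3 +/+ mice (WT). Runx3 is a Runt-domain transcription factor with known roles in NK and CD8 T cells. All mice, KO and WT, were of the ICR strain, male or female and 6 weeks old, and all received IL15/Ra complexes by injection on 2 occasions, 2 days apart. IL15 is the cytokine that keeps NK cells alive and drives their growth, so no group here is without it. NK cells were enriched by negative selection and sorted as NKp46+ cells into CD27+CD11b- (CD27, immature), CD27+CD11b+ (DP) and CD27-CD11b+ (CD11b) subsets, with 3 arrays for each subset and genotype and 18 arrays in all. The labels name no CD3 gate, and no Cre driver or cell type for the knockout. They do not say which arrays share animals, so the p-values measure the spread between these arrays. In sorted bulk cells, fewer cells of a type and less RNA per cell cannot be told apart.

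Values are the deposited log2 expression values, on which a difference of 1 is a 2-fold change. Differences were tested with limma, with p adjusted over all 35399 probe sets, and passed at an adjusted p under 0.05. Each was recomputed under 25 to 27 alternatives (other normalizations, filters, blocks and arrays left out). Array medians lay between 6.27 and 6.35, array pairs correlated at 0.960 to 0.995, and the median within-group SD over all probe sets was 0.14. Runx3 itself was 1.43-fold lower in KO than in WT CD27 cells, 1.55-fold lower in DP cells and 1.40-fold lower in CD11b cells (limma, adjusted p = 0.0416, 0.0175 and 0.0416; without KO replicate 3, 0.0684, 0.0229 and 0.0748). Whether its probes lie in the deleted part is not given in the sources used here. The 7 NK cell markers (Ncr1 and Prf1 among them) averaged 12.47 to 13.01 on every array. The arrays of KO replicate 3 stood apart. Among CD11b KO cells, the mean of 8 myeloid markers was 6.49, 5.86 and 9.46 (replicates 1, 2 and 3), against 5.88 to 5.95 in CD11b WT cells. In DP cells KO replicate 3 read 6.45, against 5.96 to 6.03 in WT. Results whose call depends on KO replicate 3 are therefore given with and without it. The fits without KO replicate 3 still hold CD11b KO replicate 1, whose myeloid mean was also above the WT range. Xist, the RNA of the inactive X chromosome of female cells, read 12.64 to 13.00 on the KO replicate 3 arrays and 5.13 to 5.62 on the other KO arrays, against 12.48 to 12.92 on the arrays of WT replicates 2 and 3 and 5.19 to 5.69 on those of WT replicate 1. It was thus high in 1 of 3 KO and 2 of 3 WT replicates, and its part in the results was not tested.

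The promoter windows of the CD3 chains and of Fcer1g are shown because the CD3 chains had the widest ranges of the 10 genes over the arrays, and Fcer1g one of the narrowest. Each window runs from 250 bases before to 50 bases after the gene start, 5′ to 3′ on the gene's strand, from RefSeq on mouse build GRCm38.p6. Capitals mark the Runx core motif, searched as TGTGGT or TGCGGT on both strands (ACCACA or ACCGCA on the other strand).
Cd3d promoter window, chr9:44981536-44981835, plus strand: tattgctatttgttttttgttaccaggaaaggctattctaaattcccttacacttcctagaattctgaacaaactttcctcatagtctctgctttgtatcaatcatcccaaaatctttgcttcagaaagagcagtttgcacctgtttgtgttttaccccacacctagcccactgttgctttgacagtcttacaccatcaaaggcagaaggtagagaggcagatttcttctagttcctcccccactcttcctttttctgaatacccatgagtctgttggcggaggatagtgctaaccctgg
Cd3e promoter window, chr9:45009562-45009861, minus strand: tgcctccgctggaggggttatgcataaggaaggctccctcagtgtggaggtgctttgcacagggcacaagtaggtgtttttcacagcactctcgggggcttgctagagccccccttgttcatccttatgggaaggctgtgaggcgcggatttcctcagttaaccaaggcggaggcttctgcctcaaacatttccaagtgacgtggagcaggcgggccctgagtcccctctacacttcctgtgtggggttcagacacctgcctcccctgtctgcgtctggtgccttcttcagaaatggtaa
Cd3g promoter window, chr9:44980382-44980681, minus strand: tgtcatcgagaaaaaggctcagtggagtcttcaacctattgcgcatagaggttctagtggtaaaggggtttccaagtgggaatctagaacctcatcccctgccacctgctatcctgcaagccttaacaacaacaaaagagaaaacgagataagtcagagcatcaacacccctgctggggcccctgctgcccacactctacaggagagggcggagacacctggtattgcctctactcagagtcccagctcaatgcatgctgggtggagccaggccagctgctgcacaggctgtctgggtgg
Fcer1g promoter window, chr1:171234300-171234599, minus strand: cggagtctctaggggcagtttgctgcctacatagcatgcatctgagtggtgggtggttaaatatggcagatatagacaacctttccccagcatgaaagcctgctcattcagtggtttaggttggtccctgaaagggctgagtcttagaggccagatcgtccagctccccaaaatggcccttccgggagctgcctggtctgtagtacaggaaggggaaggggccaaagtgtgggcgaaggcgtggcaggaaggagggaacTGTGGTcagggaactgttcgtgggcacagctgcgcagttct
Of the 10 genes, 9 had a window in the RefSeq table, with 12 windows in all. The motif was present in 1 window each of Fcer1g, Zap70, Syk and Lat, and was not among the letters of the Cd3d, Cd3e, Cd3g, Cd247 or Hcst windows. It is frequent, being present in 22.4% of all 32851 windows of this length and at 25.0% of 27025 genes. Cd3g, Cd3d and Cd3e are consecutive protein-coding genes on chromosome 9, and Tyrobp and Hcst are neighbours on chromosome 7.

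The first comparison asked what loss of Runx3 did to the CD3 chains in each subset. In immature CD27 cells, Cd3e and Cd3d were lower in KO than in WT, and Cd3e was the member with the widest difference. Cd3e encodes the epsilon chain, which pairs with both the gamma and the delta chain. It read 6.39, 6.69 and 7.65 in CD27 KO cells (replicates 1, 2 and 3), against 10.49, 11.09 and 8.14 in CD27 WT cells. All KO arrays lay below all WT arrays, and WT replicate 3 was low in its group and close to KO replicate 3. The means were 6.91 ± 0.66 in KO and 9.91 ± 1.56 in WT cells (SD, n = 3 each). Cd3e was 8.01-fold lower in KO (95% interval 3.58 to 17.9, log2 difference -3.00, limma adjusted p = 0.0179). This call was lost without CD27 KO replicate 1 (adjusted p = 0.0812), KO replicate 2 (0.0698), WT replicate 1 (0.0673) or WT replicate 2 (0.0754), and in a fit of only the 2 groups compared (0.286). The log2 difference stayed between -3.89 and -2.41 in all 26 alternatives.

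Cd3d, the delta chain, read 9.0, 8.51 and 8.42 in CD27 KO cells, against 9.38, 9.93 and 10.58 in CD27 WT cells. The groups did not overlap, and WT replicate 3, the lowest WT array for Cd3e, was the highest for Cd3d. Cd3d was 2.50-fold lower in KO (95% interval 1.63 to 3.84, log2 -1.32, limma adjusted p = 0.0476). The call stood at the threshold: it was kept in 6 of 26 alternatives, with adjusted p from 0.0190 to 0.253, and in 3 of the 18 fits that left out 1 array (those without CD27 WT replicate 1, DP KO replicate 1 or DP KO replicate 3). Leaving out CD27 WT replicate 2 gave the highest adjusted p of those fits, 0.154, and without the 3 arrays of KO replicate 3 it was 0.0737. Cd3g, the gamma chain, read 12.24, 12.00 and 11.48 in CD27 KO cells, against 12.23, 12.26 and 12.62 in CD27 WT cells. Its groups overlapped, and its log2 difference of -0.46 (95% interval -1.10 to 0.17) had an adjusted p of 0.624. In all, 2 of the 10 members passed in CD27 cells, both lower in KO, where 0.907% of all probe sets passed.

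**Figure D1:**
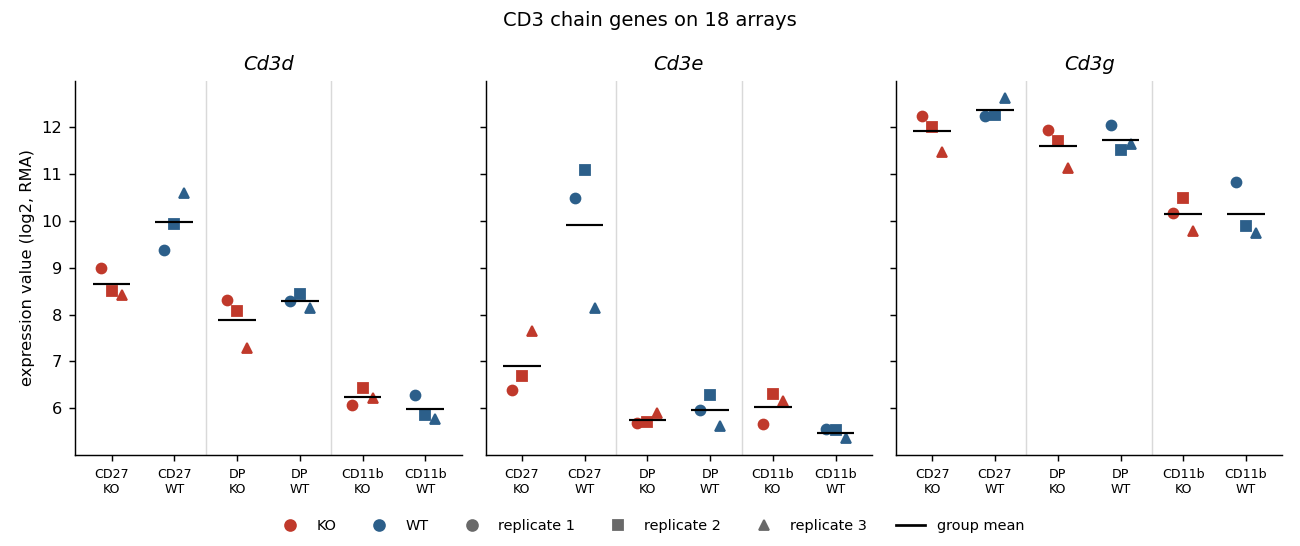
Log2 expression values of Cd3d, Cd3e and Cd3g on 18 arrays, with KO left of WT in each subset (CD27, DP, CD11b). Points are arrays, shapes are replicate numbers and bars are group means; in CD27 cells the 3 Cd3e KO values (6.39 to 7.65) lie below the 3 WT values (8.14 to 11.09), while Cd3g overlaps.

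In DP cells none of the CD3 chains passed the test. Cd3e read 5.68, 5.71 and 5.90 in DP KO cells, against 5.97, 6.27 and 5.61 in DP WT cells. Cd3d read 8.30, 8.07 and 7.29 in KO, against 8.30, 8.43 and 8.14 in WT. Cd3g read 11.93, 11.71 and 11.12 in KO, against 12.04, 11.51 and 11.65 in WT. The groups overlapped for Cd3e and Cd3g, and for Cd3d 2 KO arrays were below every WT array and KO replicate 1 lay among them. No member passed in DP cells, where 0.395% of probe sets did, and the widest member difference was that of Cd3d (log2 -0.40, 95% interval -1.02 to 0.22).

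In CD11b cells Cd3e pointed the other way. It read 5.66, 6.30 and 6.15 in CD11b KO cells, against 5.55, 5.53 and 5.37 in CD11b WT cells. All 3 KO arrays were above all 3 WT arrays, but 5 of the 6 values were below the lowest array median, and the log2 difference of 0.55 (95% interval -0.61 to 1.71) did not pass (adjusted p = 0.761). Cd3d (6.06, 6.43 and 6.23 in KO, against 6.29, 5.86 and 5.78 in WT) and Cd3g (10.16, 10.48 and 9.77 in KO, against 10.82, 9.89 and 9.75 in WT) overlapped. No member passed in CD11b cells, where 1.29% of probe sets did. Averaged over the 3 subsets, no member passed either, where 8.08% of probe sets did: Cd3d had a log2 difference of -0.49 (adjusted p = 0.0935) and Cd3e of -0.88 (adjusted p = 0.108). In that average Cd3e passed without CD27 WT replicate 3 (log2 -1.18, adjusted p = 0.0011) and Cd3d without CD27 WT replicate 1 (-0.58, adjusted p = 0.0372).

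The second comparison followed the CD3 chains from the CD27 to the CD11b subset in each genotype. In WT cells all 3 CD3 chains fell. Cd3e read 5.55, 5.53 and 5.37 in CD11b WT cells, against 10.49, 11.09 and 8.14 in CD27 WT cells, and was 21.5-fold lower (95% interval 9.62 to 48.1, limma adjusted p = 0.00023). Cd3d was 15.9-fold lower (10.3 to 24.4, adjusted p = 2.4e-06), with 6.29, 5.86 and 5.78 in CD11b WT cells and 9.38, 9.93 and 10.58 in CD27 WT cells. Cd3g was 4.65-fold lower (3.00 to 7.21, adjusted p = 0.00045), with 10.82, 9.89 and 9.75 in CD11b WT cells and 12.23, 12.26 and 12.62 in CD27 WT cells. The subsets did not overlap for any of these chains. All CD11b WT values of Cd3e, and those of Cd3d on replicates 2 and 3, were below the lowest array median of 6.27. The sizes of these 2 falls are therefore less certain. Each call held in all 27 alternatives. Of all probe sets, 5% passed in this comparison.

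In KO cells Cd3d and Cd3g fell and Cd3e did not pass. Cd3d was 5.30-fold lower in CD11b than in CD27 KO cells (95% interval 3.45 to 8.14, adjusted p = 0.00048). Cd3g was 3.40-fold lower (2.20 to 5.28, adjusted p = 0.0051), a call lost only in a fit of the 2 groups compared (adjusted p = 0.0728). Cd3e read 5.66, 6.30 and 6.15 in CD11b KO cells, against 6.39, 6.69 and 7.65 in CD27 KO cells. These groups did not overlap, but the log2 difference of -0.87 (95% interval -2.04 to 0.29) had an adjusted p of 0.542. In KO cells 2 of 10 members passed, where 2.07% of probe sets did.

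Whether the fall differed between genotypes was tested directly. For Cd3e the change from CD27 to CD11b cells was higher in KO than in WT by 3.55 log2 units (95% interval 1.91 to 5.20), with an adjusted p of 0.225 in limma over all probe sets. Most CD11b values of Cd3e were below the lowest array median in both genotypes together, so this contrast rests largely on the CD27 values. For Cd3d the difference was 1.58 (0.71 to 2.46, adjusted p = 0.40) and for Cd3g 0.45 (-0.45 to 1.35, adjusted p = 0.997). So no member passed this test, where 0.0367% of probe sets did, nor the F test of any genotype by subset interaction (Cd3e adjusted p = 0.558), where 0.0113% did. Same-numbered arrays of a genotype deviated together between these 2 subsets. With the replicate number within genotype as a block Cd3e passed in the contrast (adjusted p = 0.0498) and not in the F test (0.118), where 0.331% and 0.116% of probe sets passed. Without CD27 WT replicate 3, whose Cd3e value was low in its group, it passed as well (3.55 became 4.44, adjusted p = 0.0016 for the contrast and 0.0038 for the F test).

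The single maturation steps were tested as well. Between CD27 and DP, in WT cells Cd3e was 15.5-fold lower in DP (95% interval 6.94 to 34.7, limma adjusted p = 0.0038) and Cd3d 3.20-fold lower (2.08 to 4.92, adjusted p = 0.0166), while Cd3g had a log2 difference of -0.64 (adjusted p = 0.603). The Cd3e call held without any 1 array but not in a fit of the 2 groups (adjusted p = 0.202). The Cd3d call was lost without CD27 WT replicate 2 (0.0693) or 3 (0.0511), or without DP WT replicate 1 (0.0666) or 3 (0.0767). So 2 of 10 members passed this WT step, where 0.557% of probe sets did. In KO cells none did, where 0.0198% did: the log2 differences were -1.15 for Cd3e, -0.76 for Cd3d and -0.32 for Cd3g.

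Between DP and CD11b, Cd3d and Cd3g were the chains that passed. In WT cells Cd3d was 4.96-fold lower in CD11b than in DP cells (95% interval 3.23 to 7.62, adjusted p = 0.0019, kept in all 27 alternatives). Cd3g was 2.99-fold lower (1.93 to 4.64, adjusted p = 0.0303), a call lost without any 1 of the DP WT arrays (0.0752 to 0.0869) or without CD11b WT replicate 2 (0.131) or 3 (0.148). Cd3e, already low in DP cells, had a log2 difference of -0.47 (adjusted p = 0.931). In KO cells Cd3d was 3.13-fold lower (2.04 to 4.81, adjusted p = 0.0207) and Cd3g 2.73-fold lower (1.76 to 4.24, adjusted p = 0.0460), against a Cd3e difference of 0.27. The KO Cd3d call was lost without DP KO replicate 1 (0.149) or 2 (0.109) or CD11b KO replicate 1 (0.122) or 3 (0.0691), and the KO Cd3g call in 13 of the 18 fits without 1 array (up to 0.260, without DP KO replicate 1) and without the 3 arrays of KO replicate 3 (0.0759). In this step 2 of 10 members passed in KO, where 0.514% of probe sets did, and 2 of 10 in WT, where 0.525% did. These 4 step comparisons were added after the values had been seen.

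The zeta chain and the NK adaptor chains moved little by comparison. Over all 18 arrays Cd247 spanned 0.66 log2 units, Fcer1g 0.37, Tyrobp 0.57 and Hcst 0.92, whereas Cd3e spanned 5.73, Cd3d 4.81 and Cd3g 2.87. Fcer1g, the Fc receptor gamma chain, read 13.30, 13.33 and 13.07 in CD27 KO cells, against 13.15, 13.06 and 13.18 in CD27 WT cells. In DP cells it read 13.43, 13.38 and 13.13 in KO, against 13.32, 13.33 and 13.38 in WT. In CD11b cells it read 13.23, 13.29 and 13.11 in KO, against 13.28, 13.34 and 13.37 in WT. Its genotypes overlapped in every subset, and within each subset KO replicate 3 was the lowest KO array.

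Tyrobp (DAP12) read 13.14, 13.26 and 12.73 in CD27 KO cells, against 13.15, 13.16 and 13.18 in CD27 WT cells. The CD11b values were 13.18, 13.28 and 12.89 in KO, against 13.26, 13.30 and 13.24 in WT. For Tyrobp, KO replicate 3 was below every WT array of its subset, in DP cells as well. Hcst (DAP10) showed the same arrangement, with 8.82, 8.98 and 8.25 in CD27 KO cells, against 8.85, 8.72 and 8.91 in CD27 WT cells. The zeta chain Cd247 read 9.82, 9.56 and 9.31 in CD27 KO cells, against 9.64, 9.64 and 9.50 in CD27 WT cells. Its CD11b values were 9.79, 9.66 and 9.18 in KO, against 9.77, 9.77 and 9.81 in WT.

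None of these 4 chains passed the test between genotypes. In CD27 cells the log2 differences of KO minus WT were 0.10 for Fcer1g (95% interval -0.08 to 0.29), -0.12 for Tyrobp (-0.40 to 0.16), -0.14 for Hcst (-0.65 to 0.37) and -0.03 for Cd247 (-0.37 to 0.32). The intervals thus allow changes of at most 0.65 log2 units either way, against a Cd3e interval of -4.16 to -1.84. On the 3 arrays of KO replicate 3, Tyrobp lay at 12.73 to 12.89, against 13.14 to 13.30 on the other 15 arrays. Hcst lay at 8.10 to 8.25 there, against 8.52 to 9.02 on the others, and Cd247 at 9.18 to 9.31, against 9.50 to 9.84. Without KO replicate 3 the CD27 differences were 0.04 for Tyrobp, 0.08 for Hcst and 0.10 for Cd247, and no adaptor chain passed between genotypes in any subset. The part of these arrays' other properties in the low values was not tested.

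**Figure D2:**
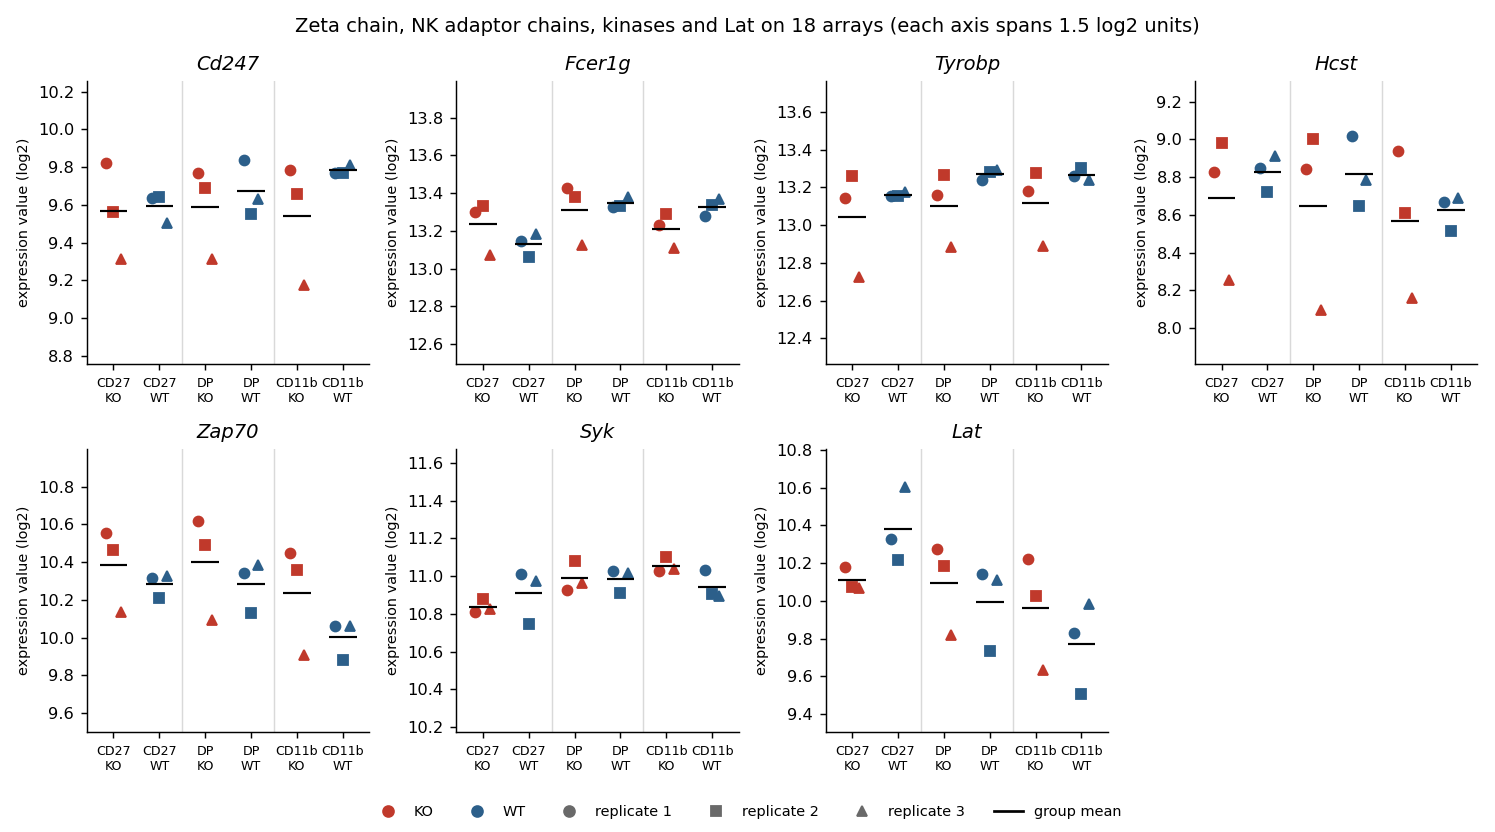
Log2 expression values of Cd247, Fcer1g, Tyrobp, Hcst, Zap70, Syk and Lat on 18 arrays, with KO left of WT in each subset. Points are arrays, shapes are replicate numbers, bars are group means and every axis spans the same 1.5 log2 units; KO replicate 3 (red triangles) is the lowest of its group for Cd247, Fcer1g, Tyrobp, Hcst and Zap70 in each subset.

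Of the kinases, Zap70 docks at phosphorylated ITAMs in T and NK cells and Syk does so in NK, B and myeloid cells. Zap70 read 10.56, 10.46 and 10.14 in CD27 KO cells, against 10.32, 10.21 and 10.33 in CD27 WT cells. In CD11b cells it read 10.45, 10.36 and 9.91 in KO, against 10.06, 9.88 and 10.06 in WT. In every subset KO replicates 1 and 2 were above all WT arrays, and KO replicate 3 was below or within them. The average log2 difference over subsets was 0.15 (95% interval -0.04 to 0.34, limma adjusted p = 0.380), and without KO replicate 3 it was 0.30 and passed (adjusted p = 0.0057). That fit took the arrays of KO replicates 1 and 2 as independent, although same-numbered KO arrays deviated together between subsets. Syk varied by 0.35 log2 units over all arrays. It read 10.81, 10.88 and 10.83 in CD27 KO cells, against 11.01, 10.75 and 10.98 in CD27 WT cells, and differed by at most 0.11 between genotypes in any subset.

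Lat, the membrane scaffold that Zap70 phosphorylates, was the member after the CD3 chains with the widest range, 1.10 log2 units. It read 10.18, 10.08 and 10.07 in CD27 KO cells, against 10.33, 10.22 and 10.60 in CD27 WT cells. The groups did not overlap, but the log2 difference of -0.27 (95% interval -0.64 to 0.10) did not pass (adjusted p = 0.617). In WT cells Lat read 9.83, 9.51 and 9.98 in the CD11b subset, against 10.33, 10.22 and 10.60 in the CD27 subset. That difference of -0.61 (-0.98 to -0.24) had an adjusted p of 0.0599, just above the threshold. It passed with cyclic loess (0.0193), a filter on low values (0.0406) and probe set means (0.0432). It also passed with the replicate number as a random (0.0128) or fixed (0.0483) block. Without DP KO replicate 3 (0.0473) or CD11b KO replicate 3 (0.0353) it passed as well. In KO cells it was -0.15 (-0.52 to 0.22), and the difference between genotypes was 0.46 (adjusted p = 0.894).

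Same-numbered arrays of a genotype deviated together between subsets, other than in all pairs of DP and CD27 WT cells. The replicate block within genotype was fitted on all arrays, these included. With that block 6 members rather than 3 passed from CD27 to CD11b in WT cells, while the share of all probe sets that passed was 10.9% rather than 5%. The added members were Lat (log2 -0.61, adjusted p = 0.0018), Zap70 (-0.28, adjusted p = 0.0037) and Fcer1g (0.20, adjusted p = 0.0306). Zap70 was thereby lower and Fcer1g higher in CD11b WT cells, by small amounts. In KO cells the block added Syk (0.22, adjusted p = 0.0413), with 6.17% rather than 2.07% of all probe sets passing. In the WT step from DP to CD11b it added Zap70 (-0.28, adjusted p = 0.0136), with 2.4% rather than 0.525% passing. Fcer1g and Lat also passed in WT cells without the 3 arrays of KO replicate 3 (adjusted p = 0.0392 and 0.0258), where 7.42% of probe sets did.

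**Figure D3:**
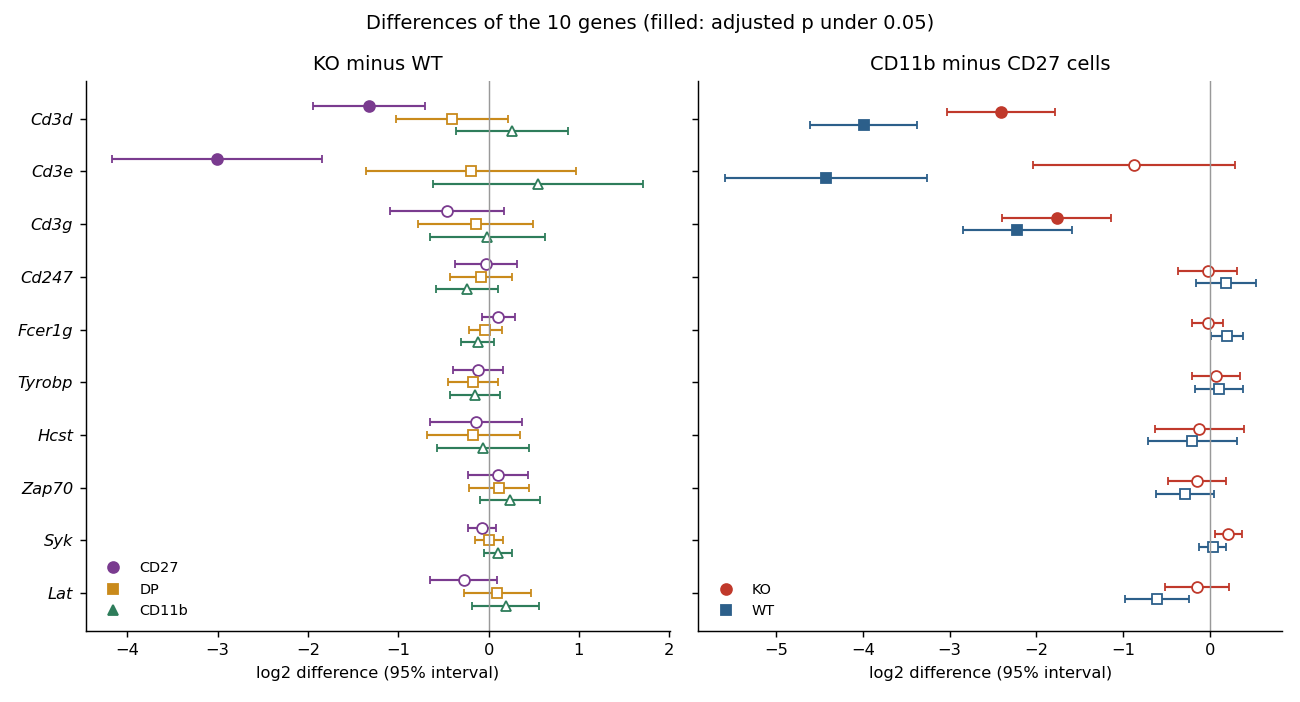
Log2 differences of the 10 genes with 95% intervals, KO minus WT in each subset (left) and CD11b minus CD27 cells in each genotype (right). Filled symbols passed at an adjusted p under 0.05; in the left panel only Cd3d (-1.32) and Cd3e (-3.00) in CD27 cells are filled, and in the right panel only CD3 chains are.

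Set side by side, the groups of genes differed in the size of their changes. From CD27 to CD11b in WT cells the median log2 difference was -3.99 over the 3 CD3 chains, 0.10 over the 3 adaptor chains and -0.28 over Zap70, Syk and Lat, beside 0.02 over all probe sets. In KO cells those medians were -1.77, -0.03 and -0.15, beside 0.02. For KO minus WT in CD27 cells they were -1.32, -0.12 and -0.07, beside -0.01. The zeta chain, which belongs to the T cell receptor complex as well as to NK receptors, had 0.19 in WT (95% interval -0.15 to 0.53) and -0.03 in KO (-0.37 to 0.32) for CD11b minus CD27.

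As a description over 18 arrays that may share animals, Cd3d and Cd3g values correlated at r = 0.95, Cd3d and Cd3e at 0.68 and Cd3e and Cd3g at 0.53. After each array's group mean was removed, Cd3d and Cd3g still correlated at 0.70, whereas Cd3d and Cd3e correlated at -0.51. Zap70 deviations correlated with those of Hcst at 0.91 and of Cd247 at 0.90, with KO replicate 3 at the low end for each. The genes most like Cd3e over the 18 arrays, among 2922 genes with a range of at least 1 log2 unit, were Psd2 and Gpr15 (r = 0.94 each), Ccr7 (0.93), Zbtb18 (0.91), Arhgap5 (0.89) and Klk8 (0.88). Those most like Fcer1g were Slc35d2 (0.91), Slc25a43 (0.87), Gpc1 (0.85), Bend6 (0.83), Ptprv and Vsig10l (0.82 each).

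Because the labels name no CD3 gate, T cell receptor gene segments and T cell markers are given beside the CD3 values. The array holds 52 probe sets annotated only to T cell receptor segments, of which 4 are for gamma V segments, 45 for alpha, 2 for beta and 1 for delta. All 4 gamma probe sets fell from CD27 to CD11b in WT cells, as did 1 beta probe set, Trbv1 (log2 -0.77, adjusted p = 0.0333), and 2 alpha probe sets that share their segments and their values (-0.64, adjusted p = 0.0090). The gamma probe set annotated to 2 segments was the most like Cd3e (r = 0.96 over 18 arrays). It read 5.99, 5.23 and 7.07 in CD27 KO cells, against 8.76, 9.17 and 6.17 in CD27 WT cells. WT replicate 3, the low WT array for Cd3e, was low here as well, and below KO replicate 3.

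Trgv1 had r = 0.64 with Cd3e. It read 12.39, 12.03 and 12.40 in CD27 KO cells, against 12.20, 12.70 and 12.89 in CD27 WT cells. In CD11b cells it read 11.49, 10.89 and 10.97 in KO, against 9.34, 9.76 and 9.42 in WT. There all KO arrays were above all WT arrays, and Trgv1 was higher in KO by 1.61 log2 units (limma adjusted p = 0.0062). The pair of gamma probe sets annotated to 3 segments were also higher in CD11b KO cells, by 2.32 and 1.97 log2 units (adjusted p = 0.0140 and 0.0152), and all 3 calls held without KO replicate 3. In CD27 cells none of the 4 gamma probe sets passed between genotypes, and the probe set of 2 segments differed by -1.93 (adjusted p = 0.168). Without KO replicate 3, 1 of the probe sets of 3 segments passed there, lower in KO (-1.71, adjusted p = 0.0407). The other segments with a probe set of their own and a high mean value, Trav13-5, Trbv1 and Trdv2-2, correlated with Cd3e at r = -0.41, 0.61 and 0.11. Trav13-5 had the lowest r of the 45 alpha probe sets, which reached 0.85. The 2 beta probe sets had 0.61 and 0.81, and the 4 gamma probe sets 0.64 to 0.96.

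**Figure D4:**
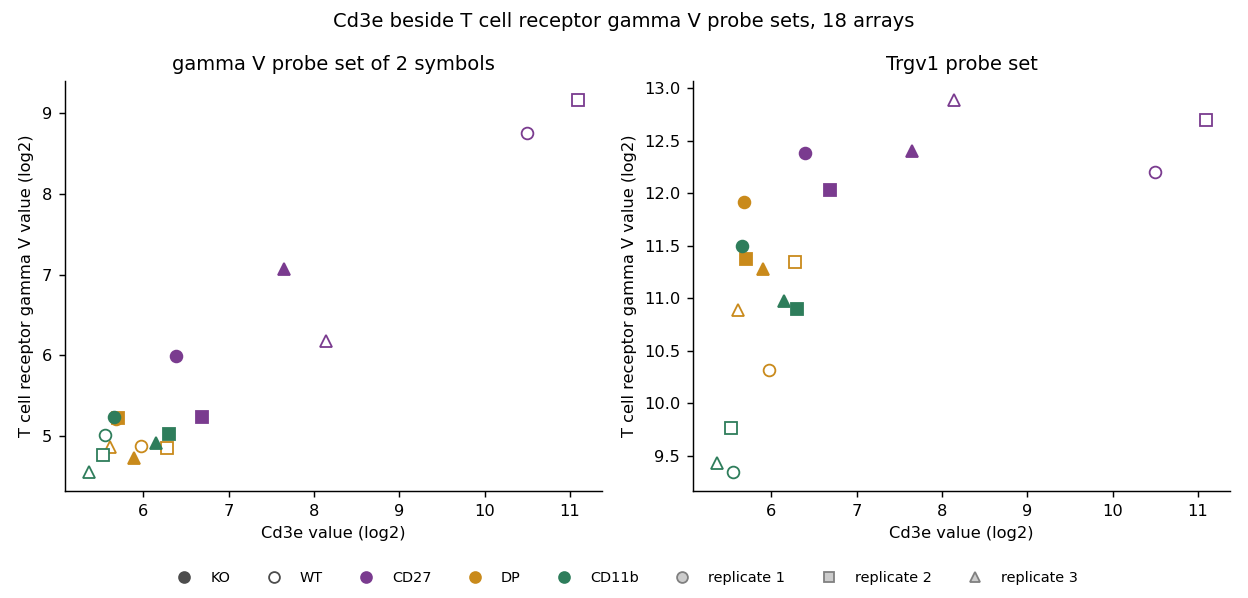
Log2 value of Cd3e (x axis) against a T cell receptor gamma V probe set annotated to 2 segments (left) and against Trgv1 (right) on 18 arrays. Filled symbols are KO and open ones WT, colours are subsets and shapes replicate numbers; on the left CD27 WT replicates 1 and 2 stand apart at the top right (8.76 and 9.17) with WT replicate 3 at 6.17, and on the right the CD11b KO arrays (10.89 to 11.49) lie above the CD11b WT arrays (9.34 to 9.76).

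Of 25 T cell markers 20 had a probe set. Trac, Trbc1, Trbc2, Trdc and Tcf7 had none annotated to them alone, so the list gives no reading of the T cell receptor constant genes. None of the 20 passed between genotypes in CD27 cells. Their mean level was 6.54 to 6.67 in CD27 KO cells and 6.61 to 6.84 in CD27 WT cells. On all 6 CD27 arrays 11 of the 20 were below the lowest array median of 6.27, among them the T cell surface markers Cd5, Cd6, Cd8a and Cd8b1. Of the other 9, Cd28 (11.80 to 12.16), Lef1 (10.22 to 10.81), Ubash3a (9.04 to 9.63), Icos (8.89 to 9.84) and Zbtb7b (8.38 to 8.95), with Bcl11b and Ccr7, were above it on all 6. Cd4 read 6.19, 5.65 and 6.71 in CD27 KO cells, against 4.95, 5.06 and 4.90 in CD27 WT cells. Cd8a went the other way, with 5.57, 5.65 and 5.62 in CD27 KO cells, against 5.93, 6.16 and 5.98 in CD27 WT cells. Ccr7, a chemokine receptor of naive T cells and of some immature NK cells, read 6.36, 6.52 and 7.43 in CD27 KO cells, against 7.43, 8.04 and 7.48 in CD27 WT cells. From CD27 to CD11b in WT cells 6 of the 20 markers were lower, where 5% of all probe sets passed. They included Ubash3a (log2 -1.62), Ccr7 (-1.45), Cd28 (-1.35) and Trat1 (-1.28, a call kept in 9 of 26 alternatives). In CD11b cells the 20 markers averaged 6.25, 6.28 and 6.44 in KO (replicates 1, 2 and 3), against 6.20 to 6.26 in WT. On CD11b KO replicate 3, Cd4, Cd8a and Cd8b1 read 7.23, 6.92 and 6.34, their highest values of all arrays. Cd5 and Cd6 (5.18 and 5.29) were there within the range of the other CD11b arrays. The part of T cells or of cells with rearranged gamma genes in the CD3 values was not tested.

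The sorting marker Itgam (CD11b) also moved with Cd3e among the CD27 arrays. It read 9.35, 9.40 and 9.74 in CD27 KO cells, against 10.56, 10.62 and 9.25 in CD27 WT cells, so WT replicate 3 was the low WT array for both genes. Markers of group 1 innate lymphoid cells (Il7r, Cd200r1, Tmem176b, Inpp4b and Itga1) averaged 9.85 to 10.14 in CD27 KO cells and 9.26 to 10.06 in CD27 WT cells. In CD11b cells they averaged 7.60 to 8.29 in KO and 6.76 to 7.03 in WT. Of the 5, Tmem176b and Inpp4b were higher in CD11b KO cells by 2.02 and 1.47 log2 units (adjusted p = 0.0114 and 0.0033), and in DP KO cells by 1.83 and 1.40 (adjusted p = 0.0444 and 0.0102). Of these 4 calls, that of Tmem176b in DP cells was lost without KO replicate 3 (adjusted p = 0.0644). The other 3 did not pass in either subset, where 1.29% and 0.395% of all probe sets did, and Itga1 had differences of the other sign (-0.69 in CD11b and -0.64 in DP cells). B cell markers averaged 5.74 on CD11b KO replicate 3 and 4.93 to 5.19 on the other arrays. The part of these cell types in the CD3 values was not tested.

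The receptors listed beside these adaptors, of which 16 of 17 had a probe set, changed in few cases. Whether every listed receptor uses one of the adaptors is not shown here. Klrb1a, which couples to Fcer1g, was higher in KO cells. It read 11.84, 11.76 and 12.28 in CD27 KO cells, against 10.26, 10.43 and 11.02 in CD27 WT cells, a log2 difference of 1.39 (limma adjusted p = 0.0025). It was higher in DP KO cells by 1.01 (adjusted p = 0.0262), a call lost in 7 of 26 alternatives, among them the fit without KO replicate 3 (adjusted p = 0.0665). Klra8 (Ly49H), an activating receptor that couples to Tyrobp, was lower in CD11b KO cells, with 8.42, 8.72 and 7.72 in KO, against 9.21, 9.91 and 9.45 in WT (-1.24, adjusted p = 0.0299, kept in 20 of 26 alternatives). Without KO replicate 3 that difference was -0.95 and did not pass (adjusted p = 0.0900). Averaged over subsets, Klra8 was lower in KO by a log2 difference of -0.90 and Klrb1a higher by 0.89, each kept in all 25 alternatives.

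From CD27 to CD11b cells, 1 listed receptor rose and 1 fell in WT. The one that fell, Cd160, is on the list without a named adaptor. Cd160, an immunoglobulin-like receptor of NK and T cells, was lower in CD11b cells by -1.95 in KO (adjusted p = 0.00058) and -2.69 in WT (adjusted p = 1.5e-05). Klrb1a was higher in CD11b WT cells by 1.07 (adjusted p = 0.0032). The median log2 difference of the 16 receptors was -0.0035 in KO and 0.06 in WT, beside 0.02 over all probe sets in each. Between genotypes in CD27 cells their median was -0.06, beside -0.01.

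Of 65 proximal signalling genes around these chains (kinases, phosphatases, scaffolds and exchange factors), 61 had a probe set. Between genotypes 1 passed in CD27 cells, none in DP cells and 2 in CD11b cells, beside 0.907%, 0.395% and 1.29% of all probe sets. Gab3, a docking protein, read 10.55, 10.65 and 10.61 in CD27 KO cells, against 10.97, 11.07 and 10.89 in CD27 WT cells (log2 -0.38, adjusted p = 0.0366, lost in 10 of 26 alternatives). In CD11b KO cells Gab3 was lower by a log2 difference of -0.37 (adjusted p = 0.0287), and without KO replicate 3 its adjusted p was 0.0705. Ubash3a, a suppressor of T cell receptor signalling, read 8.43, 8.62 and 8.61 in CD11b KO cells, against 7.62, 7.62 and 7.92 in CD11b WT cells. All KO arrays were above all WT arrays (0.83, adjusted p = 0.0111), and without KO replicate 3 its adjusted p was 0.0518.

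Averaged over the 3 subsets, 4 of the 61 were higher and 13 lower in KO, where 8.08% of all probe sets passed, with a median log2 difference of -0.11, beside -0.02 over all probe sets. Sh2d1b2 (an EAT-2 family adaptor, -1.31) and the phosphatase Ptpn6 (SHP-1, -0.54) were lower. Themis2 (1.06) and the docking protein Gab2 (0.57) were higher. Ptpn6 and Gab2 kept their calls in all 25 alternatives, Sh2d1b2 in 24 and Themis2 in 11. Without KO replicate 3, 4 of the 61 were higher and 8 lower, where 6.31% of all probe sets passed, and Sh2d1b2 and Themis2 no longer passed (adjusted p = 0.0639 and 0.111).

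From CD27 to CD11b cells, 3 of the 61 proximal signalling genes were higher and 4 lower in KO, and 4 were higher and 9 lower in WT, where 2.07% and 5% of all probe sets passed. With the replicate block within genotype the counts were 9 and 9 in KO and 10 and 15 in WT, where 6.17% and 10.9% passed. Ubash3a, Trat1, the exchange factor Vav3 and the diacylglycerol kinase Dgka were lower in CD11b WT cells (log2 -1.62, -1.28, -1.25 and -0.89). Ubash3a and Trat1 are on the T cell marker list as well, and Trat1 passed in 9 of 26 alternatives. In CD11b KO cells Gab2 (0.87), Sh3bp2 (0.75) and the phospholipase Plcg2 (0.70) were higher and Ubash3a lower (-0.73). Plcg2 kept its call in all 27 alternatives, while Gab2, Sh3bp2 and Ubash3a did not pass without KO replicate 3 (adjusted p = 0.0738, 0.174 and 0.105).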

How the data were processed

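RNA of 18 sorted NK cell samples was hybridised to Affymetrix Mouse Gene 1.0 ST arrays after amplification and labelling. The authors deposited log2 expression values; RMA and Partek are named in the submitters' processing notes, with no version given, and the range of the values (3.91 to 14.96) fits that scale. Of 35399 probe sets, 21789 have 1 gene symbol in the platform annotation, 1621 several and 11989 are not listed there. All were tested and those with 1 symbol named. The genome build of the array design is not given in the sources used here.

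Group means of all arrays were estimated together in limma 3.58.1 in R 4.3.3 (12 residual and 2.18 prior degrees of freedom, no filter). P-values are two-sided, with Benjamini-Hochberg adjustment across every probe set; an adjusted p under 0.05 is called passing. The fit was tested on simulated data with independent arrays, which cannot show the effect of arrays that deviate together. All 10 members are named; from each other list, up to 4 passing genes with the largest change in each comparison were eligible, with the 6 genes most alike in pattern to Cd3e and to Fcer1g, the 4 T cell receptor segments of highest mean and the sort markers. The gamma probe sets of several segments, Cd4 and the T cell markers named for low values were chosen after their values were seen, and the 4 step comparisons were added then. The members and lists were chosen with earlier results of these data known. Alternatives were cyclic loess, a filter on low values, a robust intensity trend, fits of only the groups compared, probe set means, replicate blocks (random block with statmod 1.5.0) and leaving out arrays. The number of arrays, 3 per group, limits the precision.

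Deviations of same-numbered arrays from their group means correlated above 0.1 in every pair between subsets of KO cells (0.21 to 0.64), and between CD11b and CD27 (0.22 to 0.32) and CD11b and DP (0.25 to 0.46) WT cells, but not between all DP and CD27 WT pairs (-0.0094 to 0.44) nor between genotypes. The numbers were therefore taken as pairs within genotype. The block was fitted on all arrays, so it also paired DP with CD27 WT arrays, for which the deviations did not show a pairing throughout. The F test with that block rests in part on those arrays. That block was added after the data were seen. Fits without a block took same-numbered arrays as independent, which can make p too small for averages over subsets.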

Additional observations from a re-analysis of the deposited data

Results flagged for a closer look

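Cd3e is given again because its genotypes lay apart in opposite directions in the first and last subset: all 3 KO arrays were below all 3 WT arrays in CD27 cells and all 3 were above them in CD11b cells. The CD11b difference did not pass (log2 0.55, 95% interval -0.61 to 1.71, limma adjusted p = 0.761), and most of its values were below the lowest array median of 6.27. The change from CD27 to CD11b cells differed between KO and WT by 3.55 log2 units. The test of that difference gave an adjusted p of 0.225 in limma over all probe sets, and the F test over the 3 subsets 0.558, and neither passed. With the replicate number within genotype as a block the contrast passed (adjusted p = 0.0498) and the F test did not (0.118). No group has more than 3 arrays, too few for a test of single outlying arrays.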

How the results depend on the processing

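Of 2910 recomputed values of single members, 2833 stayed on their side of the threshold, 58 lost and 19 gained a call, and none reversed a call; 107 values that never passed changed sign. For KO against WT in CD27 cells, 2 members passed, and 1 with cyclic loess, 1 with the replicate block as a fixed and 1 as a random term, 0 in a fit of only the groups compared, and 0 to 2 with arrays left out. For CD11b against CD27 cells in WT, 3 passed, and 6 with the replicate block within genotype and 3 to 5 with arrays left out. Lat was added there with cyclic loess, the filter on low values, probe set means and the fixed and random replicate blocks. In KO, 2 passed and 1 in a fit of only the groups compared. For the difference of that change between genotypes, 0 passed, and 1 with the replicate block within genotype and 0 to 1 with arrays left out. For the average over subsets and for the F test, 0 passed, and 0 to 1 with arrays left out. For the steps, in a fit of only the groups compared 0 passed for DP against CD27 in WT (2 otherwise), 1 for CD11b against DP in WT (2 otherwise) and 0 in KO (2 otherwise). With arrays left out they were 1 to 2, 1 to 2 and 0 to 2. KO against WT in DP and in CD11b cells, and DP against CD27 in KO, gave 0 in every alternative run. Fits of only 2 groups have fewer arrays to estimate the spread. Elsewhere the cause was not tested. A fixed replicate block over both genotypes changed 2 calls of members, Cd3d in CD27 cells (adjusted p = 0.0555) and Lat in WT (0.0483).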
